A study of Mus musculus with 6 samples.

Results

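The transcription factor ATF4 and 31 further genes of the stress response and of amino acid supply were followed in MEFs, fibroblasts cultured from mouse embryos. These 32 members are a list of named genes chosen by role, with no measured value in the rule: 10 stress factors and regulators, 12 enzymes of amino acid and one-carbon synthesis, 9 amino acid transporters and the lipoprotein receptor gene Vldlr. Earlier results of these data were known when the members were chosen. All 32 were found among the 26532 genes of the deposited table, and 31 passed the filter on low counts. The study holds 6 RNA sequencing libraries of wild-type MEFs, which the labels also call mesenchymal stem cells. In the control group of 3 libraries a recombinant adenovirus carried green fluorescent protein (GFP), and in the other 3 it carried ORAI2, which forms channels for store-operated calcium entry. Every library has osteogenic differentiation as its treatment label. The labels do not state whether BMP9, the bone morphogenetic protein of the series title, was added, the time of harvest, or whether replicates were separate cultures. The p-values therefore reflect only the scatter among these libraries, and that scatter may be technical.

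ATF4 is made from an mRNA whose translation increases when the initiation factor eIF2 is phosphorylated. The kinases that do this sense uncharged tRNA, misfolded protein in the endoplasmic reticulum, double-stranded RNA or haem shortage, and the whole circuit is called the integrated stress response. ATF4 pairs with C/EBP proteins on a composite DNA element and switches on genes for amino acid synthesis, amino acid import and tRNA charging, together with feedback regulators such as Ddit3, Trib3 and Ppp1r15a. Bone-forming cells depend on this supply because they secrete large amounts of collagen, which is rich in glycine and proline. Since ATF4 is controlled largely through translation, its mRNA level is not a measure of its protein.

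Total counts per library lay between 18526884 and 18844436. Levels are CPM (counts scaled to library size) after TMM normalisation, and differences are ORAI2 against GFP from edgeR's quasi-likelihood test, with Benjamini-Hochberg adjustment over all tested genes and a threshold of 0.05. Orai2 itself was at 53.4, 48.9 and 48.7 CPM in the GFP libraries and at 3656, 2831 and 2441 CPM in the ORAI2 libraries. Of 10 fibroblast markers Thy1 was nearly absent, at no more than 0.161 CPM in any library. The other 9 were measured and fell, with log2 fold changes from -3.46 (Col3a1) to -0.16 (Fn1) and a median of -0.73. Summed levels were 7866 to 8405 CPM in GFP and 6250 to 6776 CPM in ORAI2. The sum was mostly Fn1, at 5792 CPM on average in GFP and 5177 CPM in ORAI2, while Col1a1 was 2.59-fold lower, at 1260 and 486 CPM. Summed macrophage markers lay between 51.6 and 56.2 CPM in GFP and between 26.3 and 35.9 CPM in ORAI2. However, Ptprc, which marks white blood cells, stayed at or below 0.107 CPM and Csf1r at or below 0.214 CPM. Adgre1 was not matched in the table. Of these markers Mpeg1 and Cd14 fell and Cd68 did not pass. Summed endothelial markers went the other way, from 6.48 to 8.83 CPM in GFP to 16.3 to 17.6 CPM in ORAI2, with Pecam1 and Cdh5 at or below 0.375 CPM and with Kdr and Vwf both higher. Of the 5 epithelial markers Epcam had no count, and the sum lay between 2.73 and 3.75 CPM in GFP and between 4.22 and 5.12 CPM in ORAI2, with Grhl2 4.68-fold higher (adjusted p = 1.31e-04). Only 2 epithelial markers were tested, and the other had a log2 fold change of -0.23 and did not pass. Neural and glial markers, mostly Nes, summed to between 131 and 145 CPM in GFP and between 163 and 174 CPM in ORAI2, and Sox10 was not matched. Of the 4 neural and glial markers tested 1 was called higher, 1 lower and 2 did not pass, with log2 fold changes from -0.85 to 0.32. The part of these shifts in the results on stress and amino acid genes was not tested. In bulk RNA, fewer cells of a type and less RNA per cell cannot be told apart.

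The composite element that ATF4 shares with C/EBP proteins was searched as the letters TGATGNAA on both strands, in windows running from 250 bases before to 50 bases after each gene's start (RefSeq, GRCm38.p6). Windows were found for 26 of the 32 members, and 7 of them held a match (26.9%), against 2.89% of the 10709 tested genes with a window. Many members are known ATF4 targets, so this share is a description of the set. The stretches of 30 bases around the matches are shown because the direction of change differed between genes that carry nearly the same element. Each is read so that the match runs in the direction of the searched letters, with the match in capitals.
Chac1: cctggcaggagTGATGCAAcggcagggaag
Nupr1: caagccctgtcTGATGCAAtctggcccttt
Trib3: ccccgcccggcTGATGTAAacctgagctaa
Slc1a4: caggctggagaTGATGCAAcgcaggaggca
Vldlr: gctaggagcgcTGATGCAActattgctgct
Pycr1: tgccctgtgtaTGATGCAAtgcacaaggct
Asns: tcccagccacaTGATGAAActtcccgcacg

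These stretches lie at chr2:119351038-119351067 (minus strand) for Chac1, chr7:126625562-126625591 (plus) for Nupr1, chr2:152344028-152344057 (plus) for Trib3 and chr11:20332699-20332728 (plus) for Slc1a4. Those of Vldlr, Pycr1 and Asns lie at chr19:27216809-27216838, chr11:120643833-120643862 and chr6:7693214-7693243, all on the minus strand. In 5 of the 7 members the match read TGATGCAA. The match began 193 bases before the start of Chac1, 110 before that of Nupr1, 200 before that of Vldlr, 103 before that of Pycr1, 23 before that of Asns and 4 before that of Slc1a4, and 14 bases after that of Trib3. The 250 bases before the start are given for Chac1, the member with the largest rise (chr2:119350992-119351241, plus strand), and for Nupr1, the member with the largest fall (chr7:126625471-126625720, minus strand). Both are written in the direction of the gene, so the match stands in capitals as its reverse complement.
Chac1: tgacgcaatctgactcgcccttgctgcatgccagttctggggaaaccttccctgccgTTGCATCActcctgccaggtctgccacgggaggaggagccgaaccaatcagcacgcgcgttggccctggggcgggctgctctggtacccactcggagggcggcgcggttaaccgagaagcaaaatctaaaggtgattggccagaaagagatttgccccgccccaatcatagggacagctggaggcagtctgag
Nupr1: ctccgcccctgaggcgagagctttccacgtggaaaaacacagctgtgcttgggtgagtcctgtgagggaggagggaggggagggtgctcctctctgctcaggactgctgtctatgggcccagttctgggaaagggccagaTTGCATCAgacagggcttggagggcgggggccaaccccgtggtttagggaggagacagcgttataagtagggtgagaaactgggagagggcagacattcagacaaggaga

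Members moved both ways and mostly by little. Of the 31 tested, 10 rose, 10 fell and 11 did not pass, so that 64.5% were called, where 42.9% of all 13764 tested genes were called (20.8% higher and 22.1% lower). The groups of 3 libraries did not overlap in 22 of the 31, against 52.8% of all tested genes. The median log2 fold change of the members was 0.05 and their median absolute log2 fold change 0.147, against 0.00 and 0.18 over all tested genes. Chac1 alone among the members was called with a change of 1.5-fold or more, as were 8.89% of all tested genes. Over the 14 alternative settings, 14 of the 20 called members kept their call in every setting, and the other 6 are named with their values where they are described.

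**Figure D1:**
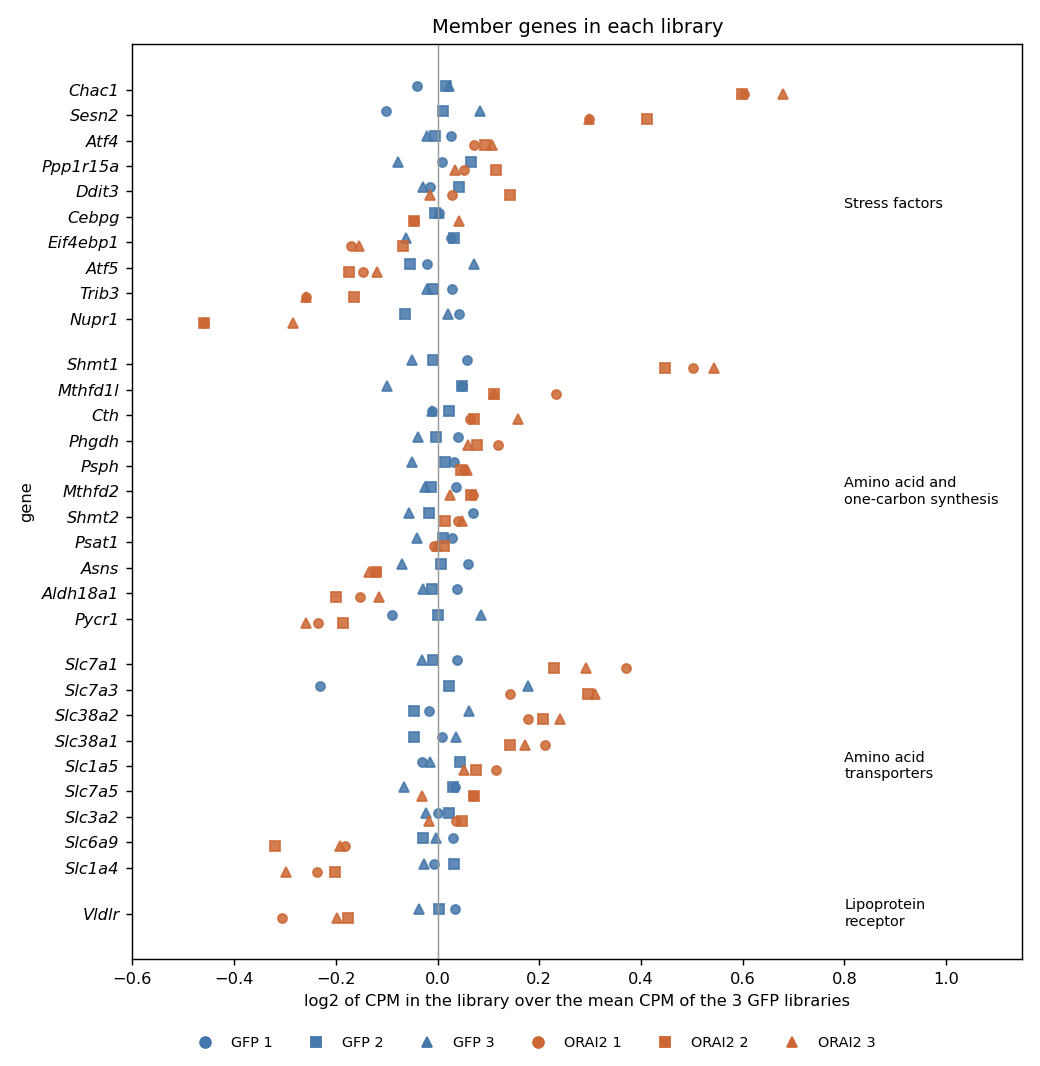
Level of each of the 31 tested members in each library, as the log2 of its CPM over the mean CPM of the 3 GFP libraries. Rows are genes grouped by role, blue marks are GFP libraries and orange marks ORAI2 libraries, and the marker shape gives the replicate number. The ORAI2 libraries of Chac1 (317, 316 and 334 CPM) lie farthest to the right, and ORAI2 replicates 1 and 2 of Nupr1 (140 and 140 CPM) farthest to the left.

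Among the 10 stress factors and regulators 3 rose, 4 fell and 3 did not pass (70.0% called, against 42.9% of all tested genes). Atf4 was at 588, 575 and 569 CPM in the GFP libraries and at 607, 616 and 622 CPM in the ORAI2 libraries. The groups did not overlap, but the difference was small, 1.07-fold, or 0.09 on the log2 scale with an SE of 0.03 (adjusted p = 0.0426, edgeR). This call was lost when replicate 2 or 3 of GFP (adjusted p = 0.143 and 0.0999) or replicate 2 or 3 of ORAI2 (0.0572 and 0.0909) was left out, with upper quartile normalisation (0.095) and without a low-count filter (0.0768), and over all alternatives the adjusted p of Atf4 lay between 0.0261 and 0.143. Atf5, a related factor that is also controlled by translation, fell from 167, 163 and 178 CPM to 153, 150 and 156 CPM (log2 fold change -0.15, SE 0.04, adjusted p = 0.00926). Atf4 and Atf5 thus moved in opposite directions. Cebpg, a C/EBP partner of ATF4, was at 209, 208 and 209 CPM in GFP and at 202, 202 and 215 CPM in ORAI2, with overlapping groups (log2 fold change -0.02, adjusted p = 0.764).

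Chac1, which encodes an enzyme that breaks down glutathione, was at 203, 211 and 212 CPM in GFP and at 317, 316 and 334 CPM in ORAI2. All 3 ORAI2 libraries lay far above all 3 GFP libraries, a 1.54-fold rise with a log2 fold change of 0.63 (SE 0.04, adjusted p = 7.59e-08, edgeR). Sesn2, a leucine sensor that restrains the growth kinase complex mTORC1 and is also a p53 target, rose 1.27-fold, from 74.3, 80.3 and 84.4 CPM to 97.9, 106 and 97.9 CPM (adjusted p = 2.00e-04). Its groups did not overlap either. Ddit3, which encodes the cell death factor CHOP, was at 201, 209 and 199 CPM in GFP and 207, 224 and 201 CPM in ORAI2 (log2 fold change 0.06, adjusted p = 0.33). Ppp1r15a, which encodes GADD34, the phosphatase subunit that reverses eIF2 phosphorylation, was at 224, 233 and 211 CPM in GFP and 231, 241 and 228 CPM in ORAI2 (log2 fold change 0.07, adjusted p = 0.21). In both genes the groups overlapped.

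Trib3, a pseudokinase that inhibits ATF4 and binds AKT, fell from 239, 233 and 231 CPM to 196, 209 and 196 CPM (log2 fold change -0.23, SE 0.04, adjusted p = 3.48e-04, edgeR). Nupr1, a small chromatin-associated stress protein, had the largest fall of the members, from 198, 184 and 195 CPM to 140, 140 and 158 CPM (1.32-fold lower, -0.40 on the log2 scale with an SE of 0.05, adjusted p = 3.69e-05). In both genes every ORAI2 library lay below every GFP library. Eif4ebp1, which encodes a repressor of cap-dependent translation and is a target of mTORC1, fell from 220, 221 and 207 CPM to 192, 206 and 194 CPM (log2 fold change -0.13, adjusted p = 0.0182). The Eif4ebp1 call was lost without replicate 1 or 2 of GFP (adjusted p = 0.0607 and 0.0824) or replicate 1 or 3 of ORAI2 (0.0802 and 0.0718), with a range of 0.00732 to 0.0824 over all alternatives. Within these feedback genes, then, Chac1 and Trib3 went opposite ways while Ddit3 and Ppp1r15a did not pass.

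Of 11 tested genes for amino acid and one-carbon synthesis 3 rose, 3 fell and 5 did not pass. The share called was 54.5%, against 42.9% of all tested genes. None of the enzymes that make serine passed. Phgdh, which catalyses the first step from glycolysis to serine, was at 986, 956 and 933 CPM in GFP and 1041, 1011 and 999 CPM in ORAI2 (log2 fold change 0.09, adjusted p = 0.074, edgeR). Its groups did not overlap, and it passed with the library size alone, limma-voom, the replicate number as a block and without GFP replicate 1 (adjusted p = 0.0463, 0.046, 0.0362 and 0.0499, in a range of 0.0362 to 0.198 over all alternatives). The Phgdh transcript is 95.3% to 98.7% identical to 9 annotated pseudogene transcripts over at least 200 bases, so its own count is uncertain. Psat1 and Psph, the next 2 enzymes of the pathway, had log2 fold changes of 0.00 and 0.05 (adjusted p = 0.974 and 0.255). Psph shares 452 exon bases with Cct6a on the opposite strand, 10.4% of its exon bases, and reads of the pair cannot be told apart if strand was not used. Cct6a itself was higher in ORAI2, at 560 CPM on average in GFP and 634 CPM in ORAI2 (log2 fold change 0.18, adjusted p = 0.00118).

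Serine is next turned into glycine and one-carbon units. Shmt1, the cytosolic enzyme of this step, was at 78.6, 75.0 and 72.9 CPM in GFP and at 107, 103 and 110 CPM in ORAI2, without overlap (1.41-fold, 0.50 on the log2 scale with an SE of 0.04, adjusted p = 1.52e-06, edgeR). Shmt2, its mitochondrial counterpart, lay between 739 and 806 CPM in GFP and between 776 and 794 CPM in ORAI2 (log2 fold change 0.03, adjusted p = 0.519). The mitochondrial folate enzyme Mthfd2 did not pass (log2 fold change 0.05, adjusted p = 0.238). Mthfd1l, which releases formate from mitochondria, rose from 154, 154 and 139 CPM to 175, 161 and 161 CPM (log2 fold change 0.15, adjusted p = 0.0242). Without GFP replicate 3 or ORAI2 replicate 1 the adjusted p of Mthfd1l was 0.0912 and 0.0945, in a range of 0.00535 to 0.0945. The difference between Shmt1 and Shmt2 was not itself tested. Shmt1 shares 184 exon bases, 4.74% of its exon bases, with Smcr8 on the opposite strand, which was also higher in ORAI2, at 215 CPM on average in GFP and 247 CPM in ORAI2 (log2 fold change 0.20, adjusted p = 4.74e-04). The part of Smcr8 reads in the Shmt1 result was not tested.

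Asns, which makes asparagine and is a textbook target of ATF4, was at 524, 505 and 479 CPM in GFP and at 462, 462 and 458 CPM in ORAI2. It fell by 0.13 on the log2 scale (adjusted p = 0.0182, edgeR), with all ORAI2 libraries below all GFP libraries. The Asns call was lost without replicate 1 or 2 of GFP or replicate 3 of ORAI2 (adjusted p = 0.0784, 0.0652 and 0.0608, in a range of 0.00441 to 0.0784). Both proline enzymes fell as well. Aldh18a1, which starts proline synthesis from glutamate, went from 429, 415 and 410 CPM to 376, 364 and 386 CPM (log2 fold change -0.16, adjusted p = 0.00421), and Pycr1, which completes it in mitochondria, from 41.9, 44.6 and 47.3 CPM to 37.9, 39.2 and 37.3 CPM (log2 fold change -0.23, adjusted p = 0.00535).

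Cth, which releases cysteine in the transsulfuration pathway, was at 168, 172 and 168 CPM in GFP and 177, 178 and 189 CPM in ORAI2. The groups did not overlap (log2 fold change 0.10, adjusted p = 0.0472, edgeR). The Cth call was lost without any 1 of the GFP libraries (adjusted p = 0.121, 0.0792 and 0.0947 for replicates 1, 2 and 3) or without ORAI2 replicate 3 (0.154), with upper quartile normalisation (0.112), without a low-count filter (0.0902) and with DESeq2 (0.0843), in a range of 0.0362 to 0.154. Without GFP replicate 3, Shmt1 was the only member of the synthesis list called higher. Cbs, the enzyme before Cth, had 8, 13 and 9 counts in GFP and 11, 7 and 7 counts in ORAI2 and was under the filter, so that a difference was not detectable at this depth.

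Among the 9 amino acid transporters 4 rose, 2 fell and 3 did not pass (66.7% called, against 42.9% of all tested genes). Slc7a1, the main carrier of arginine and lysine, was at 725, 702 and 691 CPM in GFP and at 913, 827 and 864 CPM in ORAI2. The groups were far apart (1.23-fold, 0.30 on the log2 scale with an SE of 0.04, adjusted p = 9.61e-05, edgeR). Slc7a3, another cationic carrier, was at 21.4, 25.5 and 28.4 CPM in GFP and 27.7, 30.8 and 31.1 CPM in ORAI2, the only called member whose groups overlapped (log2 fold change 0.25, adjusted p = 0.0383). The Slc7a3 call was lost without replicate 1 or 2 of GFP (adjusted p = 0.142 and 0.0785) or replicate 2 or 3 of ORAI2 (0.105 and 0.11) and with upper quartile normalisation (0.0617), in a range of 0.00566 to 0.142. Without GFP replicate 1 its log2 fold change was 0.15.

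Slc38a2, the carrier SNAT2 that takes up glutamine and alanine when amino acids are scarce, rose from 833, 816 and 880 CPM to 953, 973 and 996 CPM (log2 fold change 0.21, adjusted p = 8.49e-04, edgeR). Its relative Slc38a1 rose from 398, 383 and 406 CPM to 458, 437 and 446 CPM (log2 fold change 0.18, adjusted p = 0.00189). Neither gene's groups overlapped. The exchanger of large neutral amino acids, made of the subunits Slc7a5 and Slc3a2, did not pass (log2 fold changes 0.04 and 0.02, adjusted p = 0.489 and 0.611). Slc7a5 lay between 446 and 478 CPM in GFP and between 457 and 491 CPM in ORAI2.

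The neutral exchangers of the Slc1 family differed from each other. Slc1a4, which carries serine and alanine, fell from 142, 146 and 140 CPM to 121, 124 and 116 CPM (log2 fold change -0.24, SE 0.04, adjusted p = 2.17e-04, edgeR), and no ORAI2 library reached the GFP level. Slc1a5, the glutamine carrier, was at 169, 178 and 171 CPM in GFP and 187, 182 and 179 CPM in ORAI2 (log2 fold change 0.08, adjusted p = 0.0855). Slc6a9, the glycine carrier, fell from 359, 345 and 351 CPM to 310, 282 and 308 CPM (log2 fold change -0.23, adjusted p = 6.71e-04). Exons of Slc6a9 share 1429 bases, 27.8% of its exon bases, with Ccdc24 on the opposite strand, and Ccdc24 itself was listed at 0.911 and 0.753 CPM on average. Vldlr, a lipoprotein receptor that ATF4 is known to induce, fell from 83.4, 81.6 and 79.4 CPM to 65.9, 72.1 and 71.0 CPM (log2 fold change -0.23, SE 0.04, adjusted p = 0.00137), again without overlap.

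Set against the promoter windows, the members with the element were mostly those that fell. Of 9 members that fell and have a window, 6 held a match: Nupr1, Trib3, Slc1a4, Vldlr, Pycr1 and Asns. Of 7 that rose and have a window 1 held it, Chac1, and of the 9 that did not pass none did. These shares are descriptions of few genes, and the link between element and direction was not tested. Both the members and the element were chosen with earlier results of these data known. Over all tested genes with a window the share with a match was 2.65% of 2266 genes called higher and 3.31% of 2387 called lower. Outside the members, most list genes with a match did not pass: Aars1, Gars1, Iars1, Yars1, Eif2s3x, Atf3, Got1 and Slc7a7. Fgf21, Pck2, Jdp2 and Herpud1 also held a match and were called lower, and Tars1 and Slc7a11 were called higher. The calls of Fgf21, Jdp2 and Tars1 were lost in some alternatives. A window without the searched letters may still lie near other forms of the element.

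**Figure D2:**
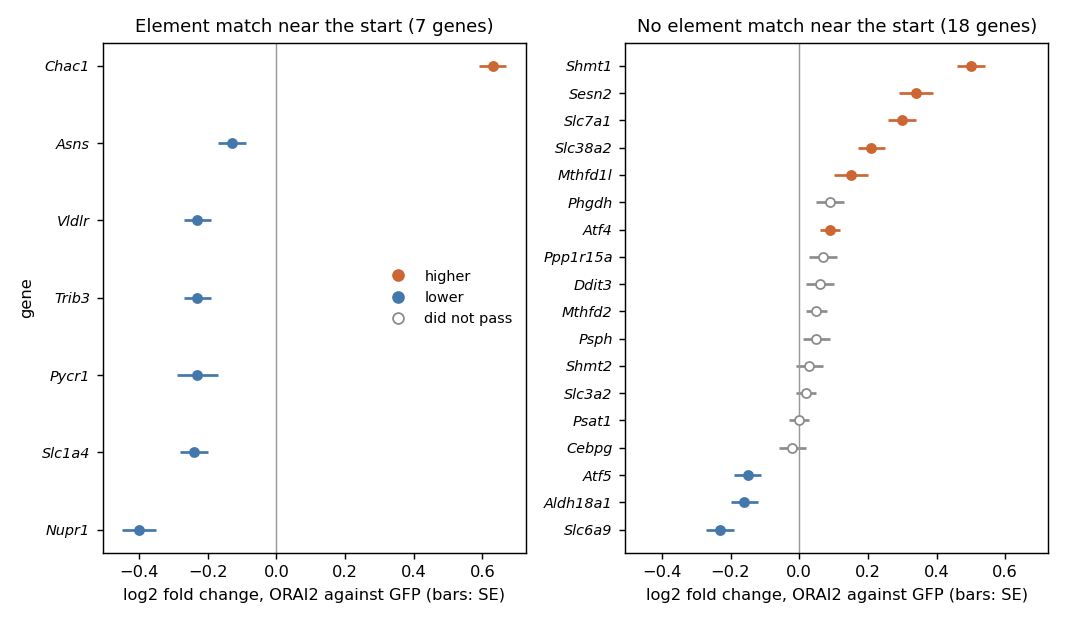
Log2 fold change of each tested member with a promoter window, ORAI2 against GFP, with its SE as bars. The left panel holds the 7 members with a match to the element in the window and the right panel the 18 without; orange is higher, blue lower and open grey did not pass. On the left Chac1 is at 0.63 and the other 6 lie between -0.40 and -0.13.

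Charging of tRNA is the step after amino acid supply, and several synthetase genes are known ATF4 targets. Of 20 genes for cytosolic synthetases 8 rose, 2 fell and 10 did not pass (50% called, against 42.9% of all tested genes), with a median log2 fold change of 0.03. Rars1, the arginine enzyme, was at 278, 288 and 284 CPM in GFP and at 390, 399 and 385 CPM in ORAI2, far apart (1.38-fold, 0.46 on the log2 scale with an SE of 0.03, adjusted p = 4.36e-07, edgeR). Nars1, the asparagine enzyme, rose from 1017, 1004 and 962 CPM to 1137, 1128 and 1117 CPM, and Lars1, the leucine enzyme, from 685, 676 and 663 CPM to 789, 761 and 744 CPM (log2 fold change 0.18 for each, adjusted p = 0.00121 and 0.0014). The other genes called higher were Farsb, Hars1, Sars1, Tars1 and Farsa, with log2 fold changes from 0.18 to 0.10. The Hars1 call was lost without ORAI2 replicate 1 (adjusted p = 0.0506), and that of Tars1 without GFP replicate 2 or ORAI2 replicate 1 (0.0544 and 0.0509). Farsa lost its call without replicate 1 or 2 of GFP or replicate 2 of ORAI2 (adjusted p = 0.0954, 0.0976 and 0.0964), with upper quartile normalisation (0.0846), without a low-count filter (0.0805) and with DESeq2 (0.106).

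Qars1, the glutamine enzyme, fell from 77.7, 74.5 and 72.0 CPM to 60.3, 56.9 and 57.9 CPM (1.28-fold lower, log2 fold change -0.36, adjusted p = 4.33e-05, edgeR). The valine gene Vars1 fell by 0.14, a call lost without GFP replicate 2 or ORAI2 replicate 3 (adjusted p = 0.0679 and 0.0676). The element matched in the windows of Aars1, Gars1, Iars1, Tars1 and Yars1, 5 of 13 cytosolic synthetase genes with a window. Of these Tars1 was called higher, and Aars1, Gars1, Iars1 and Yars1 had log2 fold changes of 0.02, -0.05, 0.03 and 0.06 without passing. The asparagine enzyme gene Nars1 thus rose while Asns, which makes its substrate, fell.

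Of the 17 mitochondrial synthetase genes 4 rose, 3 fell and 10 did not pass (41.2% called, against 42.9% of all tested genes). None of 14 windows held the element. Fars2 (phenylalanine) fell from 16.2, 16.5 and 17.2 CPM to 13.1, 12.7 and 12.4 CPM (log2 fold change -0.38, adjusted p = 0.00123, edgeR), whereas both subunit genes of the cytosolic phenylalanine enzyme, Farsa and Farsb, were called higher. Vars2 fell by 0.29 on the log2 scale (adjusted p = 0.00227). Tars2 and Yars2 rose, with log2 fold changes of 0.22 and 0.29 (adjusted p = 0.00517 and 0.00918). The other called genes were Ears2 and Mars2, higher, and Sars2, lower (adjusted p = 0.0148, 0.0147 and 0.0459). Without GFP replicate 1 the calls of Ears2 and Mars2 were lost (adjusted p = 0.0638 and 0.0531), leaving 2 genes called higher, and both were also lost without ORAI2 replicate 1 (0.0534 and 0.0727). Ears2 further lost its call with DESeq2 (adjusted p = 0.0515). The call of Sars2 was lost in 8 alternatives, with adjusted p up to 0.167. Lars2 (leucine) spread widely, at 317, 263 and 257 CPM in GFP and 237, 396 and 441 CPM in ORAI2 (log2 fold change 0.36, SE 0.17, adjusted p = 0.0981), and passed without ORAI2 replicate 1 (log2 fold change 0.59, adjusted p = 1.37e-04, in a range of 1.37e-04 to 0.387).

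**Figure D3:**
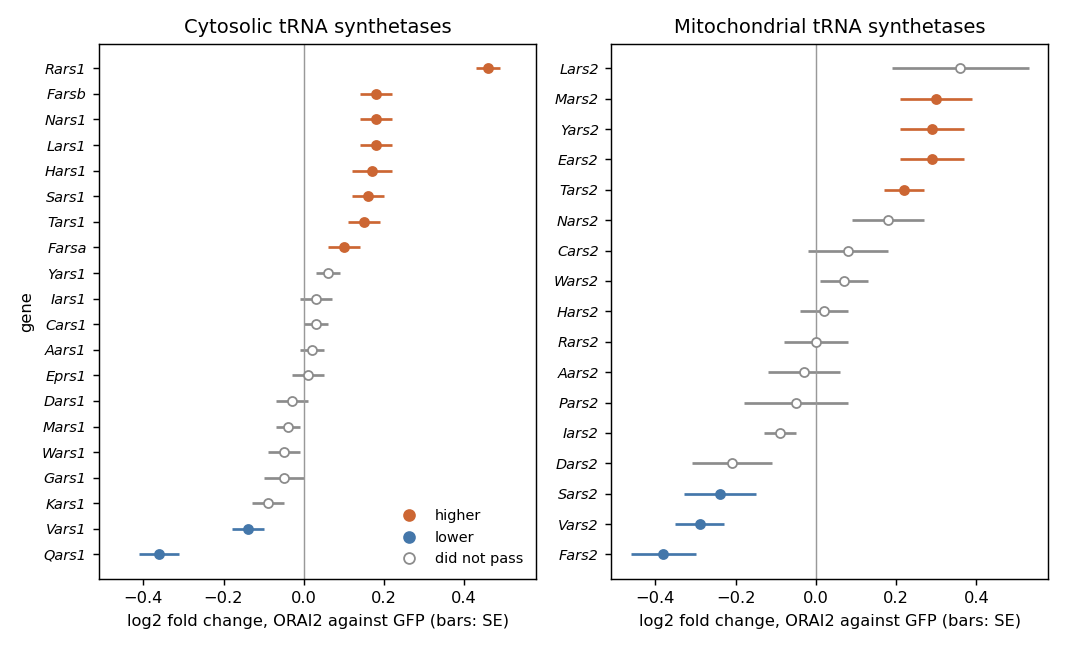
Log2 fold change of each tRNA synthetase gene, ORAI2 against GFP, with its SE as bars, for the 20 cytosolic genes (left) and the 17 mitochondrial genes (right). Orange is higher, blue lower and open grey did not pass. Rars1 at 0.46 and Qars1 at -0.36 stand at the ends of the left panel, and Lars2 has the widest bar of the right panel (SE 0.17).

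Upstream of ATF4, of the genes for the eIF2 kinases, eIF2 and its exchange factor eIF2B 2 rose, 2 fell and 13 did not pass. Of these 17 genes 23.5% were called, against 42.9% of all tested genes. Eif2ak2, which encodes PKR, the kinase that senses double-stranded RNA and is itself induced by interferon, fell from 562, 548 and 517 CPM to 379, 391 and 383 CPM (1.41-fold lower, -0.50 on the log2 scale with an SE of 0.04, adjusted p = 7.08e-07, edgeR). The other kinase genes, Eif2ak1 (HRI), Eif2ak3 (PERK) and Eif2ak4 (GCN2), had log2 fold changes of -0.10, 0.08 and 0.05 and did not pass (adjusted p = 0.121, 0.334 and 0.583), although Eif2ak1 passed without ORAI2 replicate 3 (0.0265). Impact, whose product inhibits GCN2 by competing for its activator GCN1, rose from 90.2, 99.1 and 98.4 CPM to 136, 139 and 133 CPM (1.42-fold, 0.50 on the log2 scale with an SE of 0.04, adjusted p = 1.48e-06). Eif2s1, the eIF2 subunit that is phosphorylated, rose from 138, 133 and 120 CPM to 156, 164 and 152 CPM (log2 fold change 0.27, adjusted p = 8.85e-04). In these 3 genes no library of a group reached the other group. Annotated pseudogenes nearly identical to Eif2s1 leave its own count uncertain. Eif2b4 was called lower (log2 fold change -0.18, adjusted p = 0.0455), a call lost without GFP replicate 1 or 2 or ORAI2 replicate 1 or 2 (adjusted p = 0.0869, 0.134, 0.0978 and 0.15), with the replicate block (0.0512), without a low-count filter (0.0787) and with DESeq2 (0.159).

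Of 14 further genes linked to ATF4, 4 rose, 8 fell and 2 did not pass (85.7% called, against 42.9% of all tested genes). Their median log2 fold change was -0.11. Pck2, the mitochondrial PEP carboxykinase, fell from 436, 416 and 399 CPM to 290, 277 and 291 CPM (1.46-fold lower, log2 fold change -0.54, adjusted p = 4.91e-07, edgeR). Gpt2, which makes alanine in mitochondria, fell from 233, 222 and 221 CPM to 177, 173 and 184 CPM (log2 fold change -0.34, adjusted p = 1.40e-05), and Ddit4, an inhibitor of mTORC1, from 82.1, 76.4 and 76.2 CPM to 57.2, 59.6 and 63.9 CPM (log2 fold change -0.38, adjusted p = 6.92e-05). Slc7a11, which imports cystine for glutathione and is also a target of NRF2, rose from 235, 232 and 220 CPM to 279, 276 and 258 CPM (log2 fold change 0.24, adjusted p = 4.57e-04). None of these groups overlapped. Atf3 and Gdf15 did not pass. Without GFP replicate 2 the list held 5 genes called lower. Both Pck2 and Slc7a11 held the element in their windows, once and at 2 positions.

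Neighbouring enzymes of the folate and methionine cycles gave 6 higher, 3 lower and 5 not past the threshold among 14. Of these enzymes 64.3% were called, against 42.9% of all tested genes. Atic of purine synthesis, Mat2a, which makes S-adenosylmethionine, and the cytosolic folate enzyme Mthfd1 rose by 0.41, 0.44 and 0.27 on the log2 scale (adjusted p = 2.05e-06, 6.05e-06 and 1.26e-04, edgeR). Annotated pseudogenes close to Mat2a leave its own count uncertain.

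Among 15 other amino acid enzymes 6 rose, 2 fell and 7 did not pass (53.3% called, against 42.9% of all tested genes). Arg2, the mitochondrial arginase, rose from 21.1, 21.4 and 15.6 CPM to 32.9, 26.4 and 34.6 CPM (1.62-fold, adjusted p = 4.93e-04, edgeR), and Asl, which makes arginine, fell from 44.0, 41.0 and 38.6 CPM to 29.7, 28.6 and 33.7 CPM (log2 fold change -0.43, adjusted p = 3.56e-04). Bcat1, which transaminates branched-chain amino acids, rose by 0.14 (adjusted p = 0.00566). Of 15 tested genes among 20 other amino acid transporters 4 rose, 4 fell and 7 did not pass (also 53.3% called). Slc36a1, a lysosomal amino acid exporter, rose from 40.2, 42.8 and 43.4 CPM to 59.0, 58.7 and 62.6 CPM (1.43-fold, adjusted p = 4.56e-06). Slc1a3, a glutamate and aspartate carrier, was 1.98-fold lower, at 50.7, 43.2 and 56.4 CPM and then 22.6, 20.5 and 32.7 CPM (adjusted p = 9.58e-05), and Slc38a6 and Slc38a10 fell by 0.59 and 0.20. The Slc38a6 transcript is 98.3% identical to that of Gm42860 and 98.5% identical to that of Noct over 3260 and 3240 bases, so its own count is uncertain.

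Genes of the other arms of the unfolded protein response gave 2 higher, 4 lower and 7 not past the threshold among 13. The share called was 46.2%, against 42.9% of all tested genes. The chaperone gene Hspa5 (BiP), the usual gauge of folding stress in the endoplasmic reticulum, was at 1612, 1678 and 1644 CPM in GFP and 1581, 1810 and 1621 CPM in ORAI2, with overlapping groups (log2 fold change 0.02, adjusted p = 0.734, edgeR). Xbp1, Edem1 and Pdia4 fell by 0.33, 0.31 and 0.23 on the log2 scale (adjusted p = 5.44e-04, 2.41e-04 and 4.07e-04). Ern1, the sensor that splices Xbp1 mRNA, rose by 0.26 (adjusted p = 9.78e-05). Hspa5 was named after its values were seen.

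**Figure D4:**
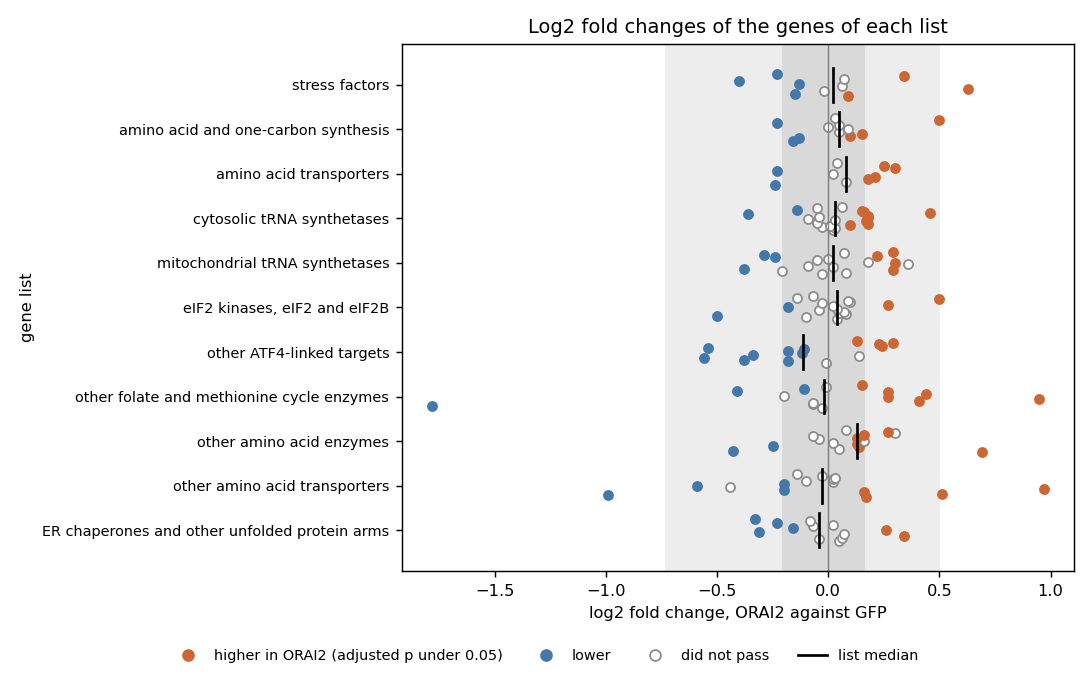
Log2 fold changes of the genes of each list, ORAI2 against GFP, with 1 dot a gene: orange higher, blue lower and open grey not past the threshold. Black bars are list medians, and the dark and light grey bands span the middle 50% and 90% of all 13764 tested genes. The medians of the 11 lists drawn lie between -0.11 (other ATF4-linked targets) and 0.13 (other amino acid enzymes).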

How the data were processed

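Polyadenylated RNA was sequenced, per the labels' protocols. The submitters' processing notes name HISAT2 2.0.4, Salmon 1.4.0 and build GRCm39, without their roles. The annotation and the strand setting were not given in the sources used. The authors deposited, per the file headers, whole-number counts and TPM for each gene and library. All 6 TPM columns lay closest to the counts of another name (r of centred log2 values 0.09 to 0.64 for the same name), so TPM entered no test between groups. Entrez numbers were matched to symbols through RefSeq (GRCm38.p6), 25631 of 26532. Within a group, libraries differed by a chi-square per gene of 2.54 to 4.50, above sampling noise.

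Counts were tested with edgeR 4.0.16 (R 4.3.3; TMM, filterByExpr with a minimum count of 10). The steps were also run on simulated data, in which far fewer genes changed than were called here. Changes as small as those of Atf4 and Cth were not simulated. SEs were derived from the F statistic. Alternatives used DESeq2 1.42.0, limma-voom (limma 3.58.1), other normalisations and filters, the replicate block, and leaving out each library.

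The members and lists were chosen with earlier results of these data known, as was the searched element. Members that were called, and all stress factors, were named with their library values, and up to 4 called genes with the smallest p were named from each other list. Further genes were named after their values were seen. Some genes that this rule selects are not reported here. Exon overlaps and near-identical transcripts came from GENCODE M21 (GRCm38), with at least 95% identity over 200 bases.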

Additional observations from a re-analysis of the deposited data

Results flagged for a closer look

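The TPM columns, which entered no test between groups, held 4 members whose lowest value in the columns named ORAI2 lay above the highest in the columns named GFP. These lowest values were 892 TPM for Atf4, 412 TPM for Chac1, 74.7 TPM for Sesn2 and 71.8 TPM for Shmt1, against highest values of 845, 302, 65.8 and 67.1 TPM in the columns named GFP. Only this direction was looked for. In the column named GFP replicate 3, Trib3 was at 41.7 TPM and Cth at 33.9 TPM. The columns named GFP replicates 1 and 2 held 240 and 240 TPM for Trib3 and 211 and 206 TPM for Cth. With such low values in a GFP column, a fall without overlap could hardly show. Each TPM column lay closest to the counts of a different replicate of the same group, but for the column named ORAI2 replicate 3 the closest r was only 0.18. The TPM values were therefore not used to compare the groups. Orai2 was at 36.3 TPM in the column named ORAI2 replicate 3, where its count was 45140; the TPM columns and the counts of the same name therefore differ for the supplied gene too.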

How the results depend on the processing

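Of the 20 counts of called genes, 15 stayed within 1.5 times their value in all 14 alternatives. Lower calls among the eIF2 kinases, eIF2 and eIF2B numbered 2, but 1 with no low-count filter, 1 with DESeq2 and 1 with the replicate block. Leaving out 1 library gave 1 to 3 of these, 1 to 3 higher calls in synthesis, 1 to 3 lower calls among cytosolic synthetases, 2 to 4 higher calls among mitochondrial synthetases and 5 to 8 lower calls among the further ATF4-linked genes. With the replicate block 3048 genes were called higher and 3198 lower, against 2869 and 3040; same-numbered libraries deviated together for numbers 1 and 3 (r = 0.30 and 0.32) and not for number 2 (r = 0.00), so the numbers were not taken as pairs. No alternative moved the median of all genes by more than 0.02 on the log2 scale. Members and pathway genes that were called kept their direction in these alternatives, while some that did not pass changed sign, such as Cebpg (-0.04 to 0.01) and Psat1 (-0.02 to 0.02 on the log2 scale). Of 11 members that did not pass, Phgdh was called in some alternatives. Cbs was too low to test at this depth.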
